A study of Mus musculus with 8 samples.

Results

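The genes described here encode proteins that move membrane and cargo between compartments: SNAREs and their partners, the synaptophysin family, the COPI and COPII coats, the Sec61 translocon, and the Rab and Arf GTPases. They were chosen by gene symbol, as every gene of the array whose symbol starts with Stx, Vamp, Snap, Sec, Rab or Arf followed by a digit, with Stxbp or Syp, or with a COPI subunit's name (Copa, Copb, Cope, Copg or Copz), or is Napa or Nsf. Names without the digit, such as Rabac1 or Arfgef1, were not taken. The family was put forward with its differences between septal tips and whole lung already known, since Stxbp3, Sypl and Sec23ip had stood among the strongest decreases. The differences below are therefore a description, given with their errors and with no p-value. The array carried 99 such genes on 133 probe sets, of 8251 genes on 10833 probe sets with 1 gene symbol. Of these, 98 probe sets of 78 genes passed the filter on low signal and were tested, and the other 35 were not. A few names mislead: Snap91 is a clathrin adaptor, Sec1 a fucosyltransferase, the Sec14-like genes encode lipid-binding proteins, Sec22b is a SNARE counted here by name with COPII, and Rab10os and Rab26os are transcribed from the opposite strand of a Rab gene.

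Lungs of C57/Bl6 mice were taken on postnatal day 6, when secondary septa subdivide the air spaces. One group was the tips of these septa, lifted from frozen sections by laser capture. The other was whole lung, pooled, which itself contains septal tips. The labels name no transgene, deleted allele or treatment for either group. The experiment was run 2 times with different litters and each RNA was read on 2 Affymetrix arrays run at separate times, which gave 2 RNA samples and 4 arrays per group. The tips pooled many animals and hold several cell types. A description label names whole lung tissue for the tip samples too, and the groups were taken from the titles.

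Secretory and membrane proteins enter the endoplasmic reticulum through the translocon, leave it in COPII vesicles, and return from the Golgi in COPI vesicles. Rab and Arf GTPases mark each compartment and recruit its coats and tethers, and SNAREs on vesicle and target membrane zip together to fuse them. In the neonatal lung this machinery serves the release of surfactant by type II cells and the export of elastin and collagen by the cells of the growing septum.

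Before the values, the sequence ahead of the start site is shown for 6 members of different classes, 4 with large decreases and 2 with increases in tips, so that genes whose signal differed the same way can be set side by side. Each line holds the 150 bases before the annotated start, on the gene's own strand, from the RefSeq promoter table of GRCm38.p6. Capitals mark matches, on either strand, to the GC box (GGGCGG), the palindromic E-box (CACGTG), the cAMP response element (TGACGTCA) or the CCAAT box (CCAAT), all chosen with the sequences in view. The stretches lie at chr3:108840503-108840652 (minus strand) for Stxbp3, chr7:128744720-128744869 (plus) for Sec23ip, chr12:32953795-32953944 (plus) for Sypl, chr17:53479084-53479233 (plus) for Rab5a, chr6:72380469-72380618 (minus) for Vamp5 and chr11:59228268-59228417 (minus) for Arf1. The table holds another start for Sypl and for Arf1, and the first was used. The first 4 genes were lower and the last 2 higher in tips.
Stxbp3: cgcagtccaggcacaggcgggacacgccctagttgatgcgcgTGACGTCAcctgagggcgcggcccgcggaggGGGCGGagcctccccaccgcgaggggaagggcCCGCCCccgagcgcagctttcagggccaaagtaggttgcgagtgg
Sec23ip: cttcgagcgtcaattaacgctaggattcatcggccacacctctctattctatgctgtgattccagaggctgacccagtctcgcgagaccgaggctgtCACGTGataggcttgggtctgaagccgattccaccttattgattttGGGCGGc
Sypl: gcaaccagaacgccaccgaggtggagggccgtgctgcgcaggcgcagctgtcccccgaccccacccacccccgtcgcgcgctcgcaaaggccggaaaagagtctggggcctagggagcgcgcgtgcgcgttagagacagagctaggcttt
Rab5a: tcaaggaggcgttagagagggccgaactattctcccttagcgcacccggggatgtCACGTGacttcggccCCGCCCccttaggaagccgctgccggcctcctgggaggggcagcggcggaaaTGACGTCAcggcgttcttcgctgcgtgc
Vamp5: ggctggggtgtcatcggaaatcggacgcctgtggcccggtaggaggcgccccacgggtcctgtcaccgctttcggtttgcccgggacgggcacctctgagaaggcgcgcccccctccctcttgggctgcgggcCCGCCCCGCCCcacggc
Arf1: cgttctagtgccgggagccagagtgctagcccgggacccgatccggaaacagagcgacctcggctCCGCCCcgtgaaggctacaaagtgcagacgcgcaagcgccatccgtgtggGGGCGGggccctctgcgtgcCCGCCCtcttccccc

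Stxbp3 and Rab5a held the cAMP response element and Sec23ip and Rab5a the E-box, while the stretches of Vamp5 and Arf1 held only GC boxes and that of Sypl no match. Over the 250 bases before the start, the cAMP response element was found in 4 of the 89 member genes in the table and in 1.62% of its 27025 promoters. The E-box was found in 15 members and 6.05% of all promoters, the GC box in 64 and 32.9%, and the CCAAT box in 36 and 34.5%. The next counts take genes in the table that were called in a single direction only. Of 18 genes called only lower, 2 held the cAMP response element, 4 the E-box, 12 the GC box and 8 the CCAAT box. Of 8 called only higher, 0, 0, 6 and 3 did. These 8 include Copz1, whose other probe set differed by -1.36 with no call. The printed genes are among those counted, and the motifs were chosen with their sequences in view. Neither the split by direction nor the comparison with all promoters is therefore a test. The shares for all promoters also cover genes that are not on the array. A match says only that the letters are there.

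Signals are the deposited MAS5 intensities, in the order experiment 1 array 1, experiment 1 array 2, experiment 2 array 1, experiment 2 array 2. A difference is tips minus lung on the log2(signal + 150.09) scale, from limma over RNA samples (n = 2 per group), with its standard error. This scale understates differences of dim probe sets. Signals of different probe sets depend on their probes as well as on the RNA, so they are compared between groups and not between genes. A member was called when its Benjamini-Hochberg adjusted p over all 7453 probe sets tested was under 0.05. Of the 98 tested members, 10 were called higher in tips and 23 lower, where 14.5% of all probe sets tested were called higher and 13.7% lower, 28.3% in either direction. Nothing is read from these counts, since the family was put forward on this contrast. With each gene taken once, by its brightest probe set, 8 of 78 members were called higher and 21 lower, beside 14.6% and 15.1% of 5642 genes. With the experiment as a block, 16 were called higher and 24 lower.

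The median difference was 0.11 over the tested members and 0.35 over all tested probe sets. Relative to that shift, the members called lower lay between -5.13 and -1.29 and those called higher between 0.72 and 1.82. Median centring gave 5 members higher and 31 lower, beside 3.64% and 20.3% of all probe sets tested under that setting, and 5 higher and 19 lower held under all 5 scalings tried. With all values under the highest background of any array set to it, 2 were called higher and 14 lower, beside 3.42% and 7.66% of all. Higher in tips, Arf1 and Stx5a kept their calls under this floor. Lower, Stxbp3, Stx7, Vamp4, Sypl, Copb1, Sec23ip, Sec23b, Sec11a, Rab2a, Rab5a, Rab9, Rab18, Rab5if and Rab14 (97301_at) kept theirs. Without the lung RNA of experiment 1 the counts were 1 and 10, without that of experiment 2 they were 4 and 12, without the tip RNA of experiment 1 they were 17 and 24, and without that of experiment 2 they were 20 and 26. In these fits 1 group holds a single RNA sample, which is assumed to vary like the other group, so the spread between samples comes from the other group alone. Shares over all probe sets are not given for these fits, for the experiment as a block or for calls held under all 5 scalings. Whether those counts move with the whole array is therefore not shown. Whole lung and tips are mixtures, so fewer cells of a type and less RNA per cell cannot be told apart in any value below.

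**Figure D1:**
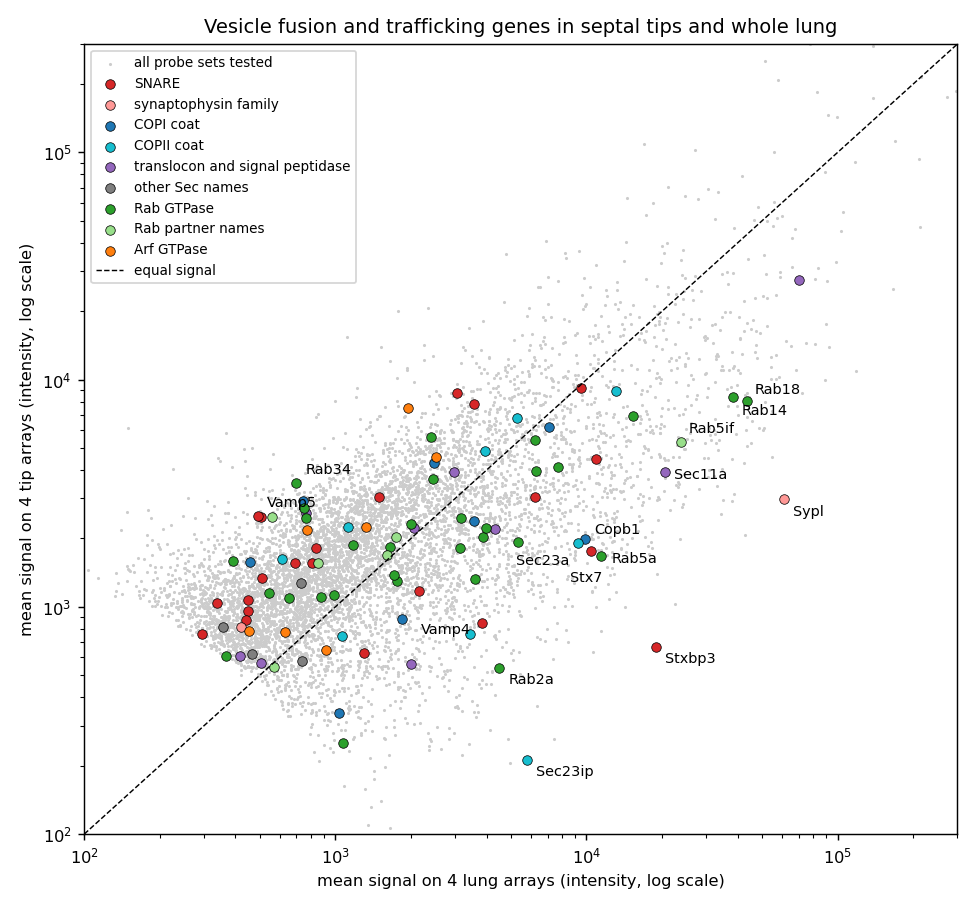
Mean signal on the 4 tip arrays against mean signal on the 4 lung arrays (both as intensity on a log scale), with 1 point per probe set tested, trafficking members coloured by class and the line of equal signal dashed. Stxbp3, Sypl and Sec23ip lie far under the line, and Rab34 and Vamp5 lie above it.

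Among SNAREs and their regulators, 22 of 33 probe sets were tested, 3 were called higher and 5 lower, and the median difference was 0.93. Stxbp3 (Munc18c), the partner of syntaxin 4 in fusion at the plasma membrane, gave 22270.4, 20330.2, 16737 and 16116 on the lung arrays and 103, 627, 602 and 1339.8 on the tip arrays. The lung arrays lay close together and far above every tip array, and only 2 tip arrays stood above background, taken per array as the 95th percentile of the signals of 19 bacterial and yeast controls. The fitted difference was -4.78 ± 0.42. Both tip arrays of experiment 1 were under background, and with each array's own background as a floor the difference was -4.10 ± 0.32 and still called. Stx4a, the syntaxin 4 that Stxbp3 binds, was the brightest member of the class. Its signals were 6093, 9098, 11095 and 11771 in lung and 10427, 9039, 9788 and 7390.3 in tips. These overlapped, with a difference of -0.02 ± 0.32 and no call.

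Stx7, a syntaxin of late endosomes, gave 12294, 13457, 7449 and 8558 in lung and 1468, 1378, 1984 and 2209.6 in tips. All tip arrays lay under all lung arrays, and the difference was -2.45 ± 0.35. Vamp4, which acts at the trans-Golgi, gave 4233, 2344, 5212 and 3557 in lung and 230.2, 143, 1747 and 1273 in tips on its called probe set (102317_at). The tip arrays of experiment 1 were under background and those of experiment 2 above it, and the difference of -2.37 ± 0.64 had the widest error of the called members. It was -1.49 ± 0.33 and still called with each array's own background as a floor, and the other Vamp4 probe set differed by -1.06 with no call. Stx12, a syntaxin of recycling endosomes, gave 12864, 14680.3, 8213 and 7960.4 in lung and 3076, 4450.5, 4607 and 5763 in tips. The groups did not overlap, but the difference of -1.24 ± 0.35 was -1.85 in experiment 1 and -0.63 in experiment 2. Stx3, a syntaxin of the apical plasma membrane, was called lower on 1 of its 3 probe sets (100499_at), which gave 6950.5, 5903, 6352 and 5798 in lung and 2764, 2866, 3123 and 3392 in tips. The groups did not overlap, and the difference was -1.01 ± 0.29. Its other probe sets lay under background on all 8 arrays.

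In the other direction, Vamp5, a SNARE described in muscle and endothelial cells, gave 201, 249, 935 and 589.6 in lung and 3067, 2608, 2719 and 1637 in tips. Both lung arrays of experiment 1 were under background, while all tip arrays were above it, and the difference was 2.17 ± 0.48. Stx5a, the syntaxin of traffic between endoplasmic reticulum and Golgi, gave 2762, 2300.5, 2866 and 4292 in lung and 8157, 8775, 7285 and 10788 in tips. Each tip array exceeded each lung array, with a difference of 1.50 ± 0.30. Vamp8, a SNARE of late endosomes and secretory granules, gave 4025, 2652, 4057 and 3562 in lung and 10449.9, 8758, 6290.3 and 5679 in tips on a probe set whose suffix marks possible sharing with related sequences. Again the groups did not overlap, and the difference was 1.07 ± 0.33. Its other probe set differed by 0.96 and was not called.

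Without the lung RNA of experiment 1, the calls of Stx12, Stx3, Vamp4, Stx5a, Vamp5 and Vamp8 were lost, at differences of -0.86, -0.97, -2.59, 1.27, 1.54 and 0.97. Without that of experiment 2, those of Stx12, Stx3, Vamp4 and Vamp8 were lost at -1.62, -1.04, -2.16 and 1.17, and without the tip RNA of experiment 1 those of Stx12 and Vamp8 at -1.01 and 0.74. Stx12 and Stx3 were not called after quantile or cyclic loess normalization, nor Stx5a and Vamp8 after median centring.

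Outside the tested set, 3 probe sets were above background on all lung arrays and on no tip array, and are named after their values were seen. Vamp7, a SNARE of lysosomes, gave 1192, 1069, 1202 and 734 in lung and 194, 81.8, 65.9 and 105 in tips on one probe set (102885_at). Its other probe set (162113_r_at), which was tested and not called, gave 217, 1342, 125 and 87.3 in lung and 296, 1766, 792 and 653 in tips. The 2 probe sets of this gene thus differed in direction, and the second varied by over 10 times among lung arrays. Stx6, a syntaxin of the trans-Golgi, gave 559.8, 776, 700.2 and 475 in lung and 162, 320.2, 253 and 121 in tips, without overlap. Sec24b, a cargo-binding COPII subunit, gave 455, 788, 619 and 389.9 in lung and 243, 32.9, 407 and 513 in tips, which overlapped. Background was mostly higher on tip arrays, which makes this choice easier to meet in the lower direction. Other untested probe sets went the other way. For Cope, Stx2, Sec61b and Rab35 every tip array exceeded every lung array, at 1.65, 0.78, 1.14 and 0.60. All their lung arrays were under background, and 2 tip arrays were above it for Cope and Stx2 only.

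Of the 3 synaptophysin-family genes, 2 were tested and 1 was called. Sypl, a synaptophysin-like protein of transport vesicles outside neurons, gave 77494, 51289, 67883 and 47365 in lung and 2503, 1657, 4680.0 and 3053 in tips. The lowest lung array was over 10 times the highest tip array, all 8 arrays were above background, and the difference was -4.35 ± 0.35, a 20.4-fold lower signal in tips. It was -4.85 in experiment 1 and -3.85 in experiment 2, and it was called under all 19 alternatives.

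**Figure D2:**
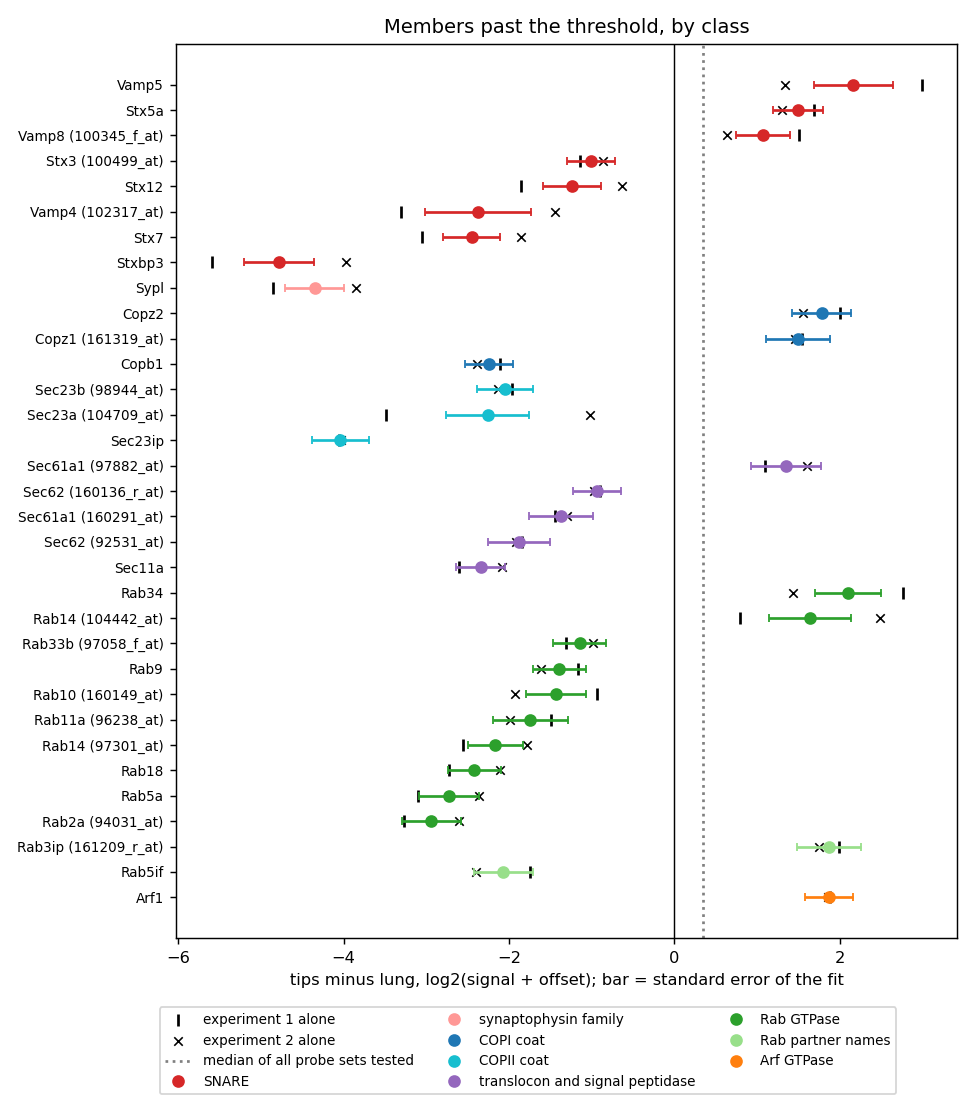
Difference between tips and lung (log2 of signal plus offset) of the 33 called member probe sets, grouped by class, with bars for the standard error of the fit (2 RNA samples per group), ticks and crosses for experiments 1 and 2 alone, and a dotted line at the median of all probe sets tested, 0.35. Stxbp3, Sypl and Sec23ip lie under -4, and both experiments point the same way for each member shown.

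For the COPII coat, which buds vesicles from the endoplasmic reticulum, 9 of 12 probe sets were tested, none was called higher and 3 were called lower, with a median difference of -0.56. All 3 were Sec23 proteins or bound to them. Sec23ip, which binds Sec23 at exit sites, gave 5335, 5434, 5851 and 6529.9 in lung and 187, 180.0, 287 and 195 in tips. Each lung array was above background and no tip array was, so that the signal was at least 6.30-fold lower in tips, with a fitted difference of -4.04 ± 0.35. Sec23a, one of both forms of the inner coat subunit, gave 13879, 11153, 5357 and 6525 in lung and 818, 1152, 2891 and 2764 in tips on its called probe set (104709_at). The groups did not overlap, but experiment 1 differed by -3.49 and experiment 2 by -1.03, with a difference of -2.26 ± 0.50 overall. Its other probe set (93711_at) was under background on all arrays. Sec23b, the other form, gave 3743, 3518, 2859.6 and 3636 in lung and 1047, 635, 1010.5 and 360.5 in tips on the called probe set (98944_at), without overlap and with a difference of -2.05 ± 0.34. The other Sec23b probe set (161939_f_at) differed by -0.63 ± 0.42, with overlap and no call.

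Sec16a, the scaffold of the exit sites and the brightest member of the class, gave 11118, 9912, 17032 and 14564 in lung and 11299.6, 10847, 7192 and 6453 in tips. The groups overlapped, with a difference of -0.56 ± 0.36 and no call. Sec23ip was called under every alternative. The call of Sec23a was lost without the lung RNA of experiment 1, at -1.73, and that of Sec23b without either lung RNA, at -1.97 and -2.13.

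For the COPI coat, which carries cargo back from the Golgi, 8 of 10 probe sets were tested, 2 were called higher and 1 lower, with a median difference of -0.34. Copb1, a large coat subunit, gave 9200.0, 10188, 9718 and 10487 in lung and 2395, 1892, 2151 and 1517 in tips. The arrays of each group lay close together and the groups did not overlap, with a difference of -2.25 ± 0.29. Copb2, a further large subunit and the brightest of the class, gave 6429, 7180.1, 7354 and 7444 in lung and 4604, 6231, 6756 and 7090.2 in tips, which overlapped, at -0.21 ± 0.29 with no call. Copz1 and Copz2 are alternative small subunits. Copz2 gave 940.1, 619, 812 and 601 in lung and 3518, 3513, 2353 and 2357 in tips. All tip arrays exceeded all lung arrays, and the difference was 1.78 ± 0.36.

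Copz1 had a probe set in each direction. The one called higher (161319_at) gave 529.8, 383, 408 and 505 in lung and 1551, 1646, 1146 and 1964 in tips, a difference of 1.50 ± 0.38. The other (95149_at) gave 1301, 839, 1051 and 951 in lung and 662, 293, 256 and 148 in tips, a difference of -1.36 ± 0.47 with no call, at least 1.25-fold lower because every tip array was under background. Groups did not overlap on either. The first was lost after quantile normalization, median centring or cyclic loess, under each of which the second was called lower, at -1.81, -1.90 and -1.89. Without the lung RNA of experiment 1 the calls of Copz1 and Copz2 were lost, at 1.49 and 1.83, and likewise without that of experiment 2, at 1.50 and 1.73.

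In the translocon and signal peptidase class, 9 of 10 probe sets were tested, 1 was called higher and 4 lower, with a median difference of -0.05. Sec11a, a catalytic subunit of the signal peptidase, gave 21456, 23205, 17561 and 19837 in lung and 4020.0, 3135, 4226 and 4357 in tips. The groups lay well apart, at -2.34 ± 0.30, and it was called under every alternative. Sec61a1, the pore-forming subunit of the translocon, was called in both directions. The brightest member probe set of all (160291_at) gave 58491, 61459, 73602 and 88159 in lung and 24749, 19505, 34048 and 31022 in tips, without overlap, and was lower at -1.37 ± 0.39. The dimmer one (97882_at) gave 868, 396, 1169.8 and 610.0 in lung and 451, 4072, 3462 and 2420.3 in tips. It was called higher at 1.35 ± 0.42, although its groups overlapped and array 1 of experiment 1 was lower in tips.

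Sec62, a translocon partner with a role in turnover of the endoplasmic reticulum, had 2 of 3 probe sets called lower. One (160136_r_at) gave 4666, 4031, 5370.5 and 3263 in lung and 2016, 2527, 2616 and 1612 in tips, at -0.94 ± 0.30. The next (92531_at) gave 2077, 1976, 2016 and 1912 in lung and 157, 1045, 148 and 898 in tips, at -1.88 ± 0.37, with 1 tip array above background. On both, every tip array lay under every lung array. The third (99501_at) gave 477, 406, 298 and 484 in lung and 264, 680.2, 710.4 and 785 in tips, which overlapped, at 0.37 ± 0.48 with no call. The calls of Sec61a1 and Sec62 were lost without either lung RNA. Without that of experiment 1 the Sec61a1 differences were -1.59 and 1.14 and those of Sec62 -0.91 and -1.86. Without that of experiment 2 they were -1.16 and 1.56, and -0.96 and -1.90. The Sec61a1 call in the higher direction was also lost without the tip RNA of experiment 2, at 0.88. After quantile and cyclic loess normalization neither Sec61a1 probe set was called.

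Among Rab GTPases, 31 of 44 probe sets were tested, 2 were called higher and 8 lower, with a median difference of -0.33. Rab2a, which acts between endoplasmic reticulum and Golgi, gave 5614, 5081, 3981 and 3302 in lung and 1063, 118, 623 and 344 in tips (94031_at). Each lung array was above all tip arrays, which spread widely and of which 2 were above background. The difference was -2.94 ± 0.36, and -2.11 ± 0.35 with each array's own background as a floor, called in both. The other Rab2a probe set (162141_r_at) differed by -0.12, was above background on 1 lung array only and was not tested. Rab5a, the GTPase of early endosomes, gave 11723, 9573, 12621 and 11620.2 in lung and 1239.6, 976, 2303 and 2178 in tips. The groups did not overlap, the tip signals of experiment 1 were the lower ones, and the difference was -2.73 ± 0.36. Rab18, found on lipid droplets and the endoplasmic reticulum, gave 56347, 40087, 45138 and 33460.4 in lung and 7241, 6831, 10969 and 7137 in tips. These groups lay apart too, at -2.42 ± 0.32, a 5.36-fold lower signal in tips.

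Rab14, which acts between Golgi and endosomes, had 3 tested probe sets that disagreed. The bright one (97301_at) gave 47514, 37356, 38187 and 29803 in lung and 7746, 6412, 10280.0 and 9213 in tips, without overlap, at -2.17 ± 0.33 and called lower. The one called higher (104442_at) gave 301, 716, 256 and 296 in lung and 870.1, 1003, 2162 and 2303 in tips, at 1.64 ± 0.50, with 1 lung array above background. The third (95686_at) gave 541, 402, 655 and 577 in lung and 1903, 76.7, 1199 and 1409.8 in tips, which overlapped, at 0.53 ± 0.49 with no call. The calls of one gene thus went in opposite directions. Rab34, a GTPase of lysosome positioning and cilium formation, was the other call in the higher direction. It gave 482, 525, 958 and 827 in lung and 3762, 4895, 2861 and 2482 in tips, without overlap, at 2.10 ± 0.40. Rab11a (recycling endosomes), Rab10 (transport to the plasma membrane), Rab9 (late endosome to Golgi) and Rab33b (Golgi and autophagy) were also called lower, at -1.74, -1.44, -1.39 and -1.15, and the groups did not overlap on these probe sets. The called Rab33b probe set (97058_f_at) has a suffix that marks possible sharing with related sequences. Other tested probe sets of Rab11a (92854_at), Rab10 (101933_at) and Rab33b (103062_at) differed by -0.84, -0.50 and -0.39 with no call, and on those of Rab10 and Rab33b the groups overlapped. The called Rab11a probe set was under background on all tip arrays, at least 1.30-fold lower, and its call was lost with each array's own background as a floor, at -0.38.

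Without the lung RNA of experiment 1 the calls of Rab2a, Rab34 and the higher Rab14 probe set were lost, at -2.67, 1.77 and 1.92. The Rab14 call was lost as well without the lung RNA of experiment 2, at 1.36, without the tip RNA of experiment 2, at 1.07, and after quantile normalization, median centring or cyclic loess, at 1.15, 1.10 and 1.15. The calls of Rab9, Rab10, Rab11a and Rab33b were lost without the lung RNA of experiment 1, at -1.65, -1.54, -1.78 and -1.28, and without that of experiment 2, at -1.13, -1.33, -1.70 and -1.02. That of Rab33b was lost without the tip RNA of experiment 1 too, at -0.85, and after quantile or cyclic loess normalization. With the highest background as a floor, the calls of Rab34, Rab10, Rab33b and the higher Rab14 probe set were lost.

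**Figure D3:**
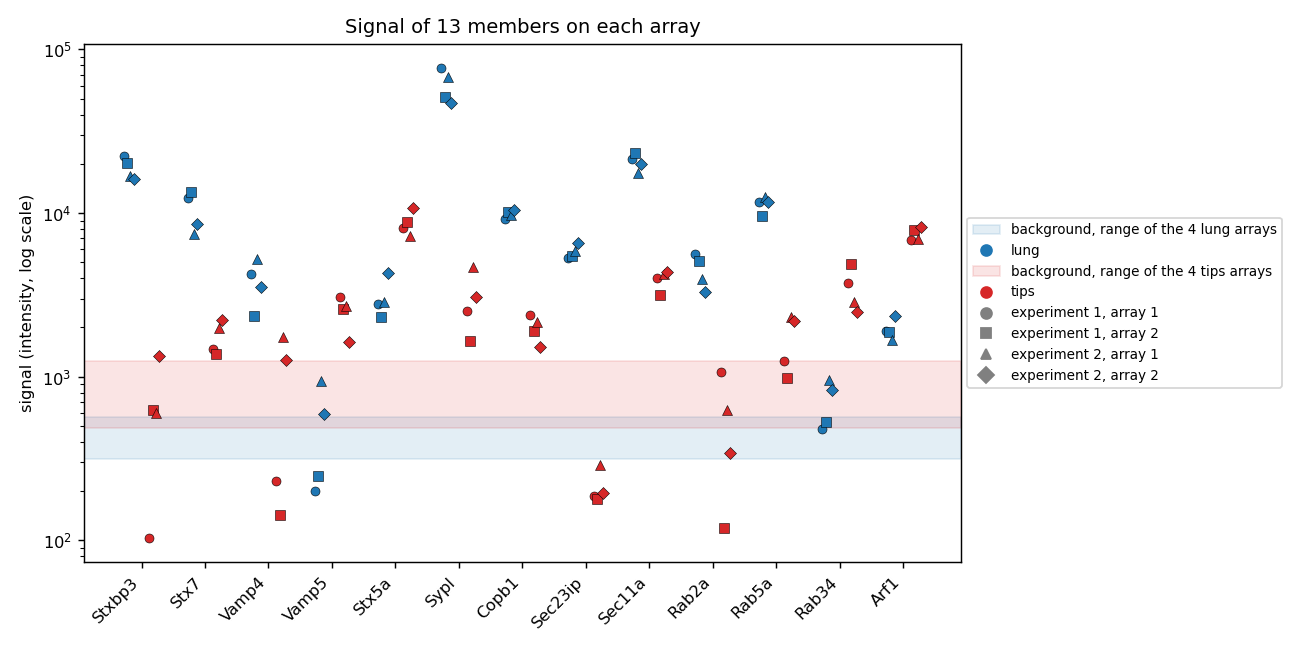
Signal (intensity, log scale) of 13 called members on each of the 8 arrays, lung in blue and tips in red, with a symbol for each experiment and array and bands for the range of background over the 4 arrays of each group. Sypl, Sec11a and Copb1 keep wide gaps between the groups above both bands, whereas Sec23ip on tips and Vamp5 on the lung arrays of experiment 1 lie under them.

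Of 6 tested probe sets of genes named after a Rab partner or, for Rab26os, the opposite strand of a Rab gene, 1 was called higher and 1 lower. Rab5if, named as a factor interacting with Rab5, gave 16979, 16464, 25839 and 36211 in lung and 5360.0, 4432, 5874 and 5516 in tips. All lung arrays exceeded all tip arrays, at -2.07 ± 0.36. Rab3ip (Rabin8), the exchange factor that activates Rab8, gave 593, 678, 599 and 369.8 in lung and 3622, 2436, 1720.3 and 2200.1 in tips on its called probe set (161209_r_at), without overlap, at 1.87 ± 0.38. Its other probe set (95539_at) gave 578, 678, 608 and 421 in lung and 716, 282, 359 and 816 in tips, which overlapped, at -0.13 ± 0.45. The call was lost without either lung RNA, at 2.04 and 1.71.

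Of 7 tested Arf probe sets, 1 was called. Arf1, which recruits the COPI coat to the Golgi, gave 1907, 1875, 1676 and 2334 in lung and 6860.1, 7886, 6932 and 8250.1 in tips. The arrays of each group lay close together, the groups did not overlap, and the difference was 1.87 ± 0.29, a 3.65-fold higher signal in tips. It was called under all 19 alternatives. The class had a median difference of 0.64. None of the 4 tested probe sets with other Sec names was called, and the brightest of them, of Sec14l2, gave 661, 809, 709.8 and 733 in lung and 2169.8, 599, 1063 and 1264 in tips at 0.58 ± 0.38.

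Several probe sets of a gene often disagreed. Of 18 member genes with more than 1 tested probe set, 10 (55.6%) had the same sign on all of them, against 549 of 896 genes (61.3%) over the array. Rab14 and Sec61a1 were called in both directions, as were 13 of the 896 genes (1.45%). In both, the probe set called lower had the higher signal in lung. The positions of the probes on the transcripts were not used here, and no gene-level direction is given for these 2 genes or for Copz1.

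**Figure D4:**
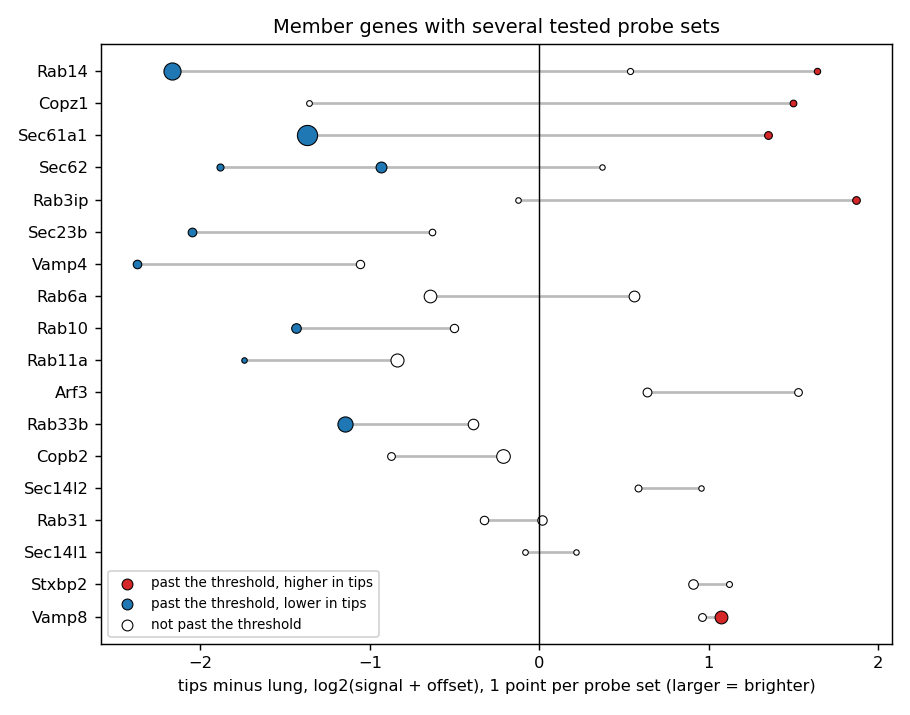
Difference between tips and lung (log2 of signal plus offset) of each tested probe set of the 18 member genes with several, with a line joining probe sets of one gene, larger points for brighter probe sets and colour for the call. Rab14 and Sec61a1 have a blue point on the left and a red one on the right.

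Calls in the lower direction went with brightness. In 4 equal bins of mean signal, from dimmest to brightest, 1 of 20, 2 of 23, 4 of 19 and 16 of 36 tested members were called lower. Over all probe sets tested the shares were 3.17%, 7.46%, 12.8% and 31.5%. Calls in the higher direction numbered 0, 5, 2 and 3 members, beside 11.2%, 14.4%, 18.8% and 13.8% of all. The median difference in the brightest bin was -0.84 for members and -0.23 for all.

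**Figure D5:**
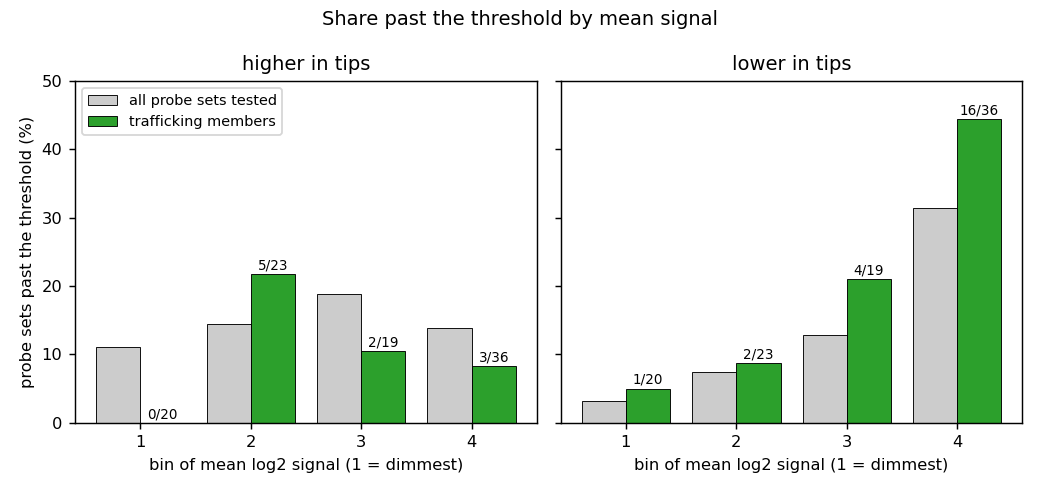
Share of probe sets called higher (left) and lower (right) in tips in 4 bins of mean log2 signal, in percent, with grey bars for all probe sets tested, green bars for trafficking members and counts over the green bars. The share called lower grows from the dimmest to the brightest bin in both sets of bars, reaching 31.5% and 16 of 36.

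Both experiments gave the same sign for 83 of the 98 tested members (84.7%), against 78.8% of all tested probe sets, and the differences of members in the experiments had a Pearson r of 0.845 across members, which share each experiment's RNA. Of all 133 member probe sets, 47 were above background on all 8 arrays and 14 on none. The 14 included the neuronal SNAREs Snap25 and Stx1a, 1 of 2 Vamp2 probe sets, Sec61b and Rab3b. Rab35, Rab33a and Rab20 were among them too.

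Other genes of the pathway, from a list of 110 that holds clathrin and its adaptors, retromer, tethers, the signal recognition particle and cargo receptors, were on the array in 95 cases and tested in 78. Of these, 12 were called higher and 17 lower, with a median difference of 0.12, beside the shares of 14.6% and 15.1% for all genes. The KDEL receptors Kdelr1, Kdelr2 and Kdelr3, which return escaped chaperones to the endoplasmic reticulum, were called higher at 1.10, 1.45 and 1.39. The clathrin heavy chain Cltc was called lower at -2.32 and the light chain Clta higher at 1.43, while the other light chain, Cltb, differed by 0.10 with no call. The retromer subunits Vps35 and Vps26a were lower at -1.91 and -1.38, while Vps29 of the same complex differed by 0.14 with no call and another Vps35 probe set by -0.16. Uso1 and Eea1, tethers of the Golgi and of early endosomes, were lower at -1.95 and -1.77. Srp9 of the signal recognition particle was lower at -3.07 and its partner Srp14 differed by -0.55 with no call. The endocytic adaptor Eps15 was lower at -3.65 on its brighter probe set while the other differed by 0.93.

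Some measures of array quality and some cell markers differed between the groups as well, while others overlapped. Their part in these differences was not tested. Background lay between 314 and 568 on lung arrays and between 487 and 1244 on tip arrays, and the 9 hybridisation controls were 4.94-fold brighter in tips. The gap was wider in experiment 1, where their geometric mean was 7725 and 8894 in lung and 57616 and 57876 in tips. In experiment 2 it was 5712 and 6464 in lung and 22360 and 20338 in tips. The signal ratio of the 3' to the 5' probe set was 38.8 to 104 in lung and 23.0 to 139 in tips for actin, and 1.95 to 5.49 and 4.18 to 12.8 for Gapdh. The SD of members between arrays of one RNA on the log2 scale was 0.55 and 0.49 in lung and 1.00 and 0.67 in tips. For type II cells, Sftpb and Sftpc summed to 21879 to 37208 in lung and 97827 to 113686 in tips, with 1 of 2 called higher. The 5 smooth muscle markers summed to 14138 to 39344 and 25929 to 42218, with 3 called higher, and the 5 endothelial ones to 29078 to 31810 and 47798 to 71949, with 3 higher and 1 lower. The 4 fibroblast markers summed to 37563 to 43397 and 20109.8 to 28952, and 3 type I markers to 39727 to 49997 and 18198 to 28179, each with 1 called lower. The airway secretory markers Scgb1a1 and Cyp2f2 summed to 14313 to 23212 and 29874 to 81805, and the ciliated markers to 958.5 to 1913 and 3669 to 4811, each with 1 called higher. The 3 neuroendocrine and nerve markers summed to 909.6 to 1485 in lung and 2292 to 5656 in tips, with 1 of 2 tested called higher. The 5 macrophage markers summed to 14974 to 19516 and 19608 to 28711, with 1 called lower and Itgam at or under background on all arrays. Erythroid, lymphocyte, platelet and mast cell markers gave no call, but only 2, 1, 1 and 1 of them were tested. Cd3e was at or under background on all arrays.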

How the data were processed

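The 8 arrays of 4 RNA samples were analysed as deposited: 1 intensity per probe set, linear, which the submitters' processing notes credit to MAS5 with no version. The labels' protocols name PicoPure extraction and RiboAmp amplification. They write the amplification for all tip arrays and 1 lung array, while the design text has both tissues' RNAs amplified in parallel.

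Each array was scaled to a 2% trimmed mean of 1500.9, an offset of 150.09 (10%) was added, and log2 was taken. The 66 control probe sets and those with a mean log2 value under the 40th percentile were left out, which left 7453 of 12488. Arrays of an RNA were averaged. Tips and lung were compared in limma 3.58.1 (R 4.3.3; lmFit, eBayes with intensity trend, 2 residual and 7.05 prior degrees of freedom), with Benjamini-Hochberg adjustment at 0.05. The median standard error was 0.40, and the small number of arrays limits the precision. The fit was also run on simulated data, drawn as independent normal values with no unequal background and no shift of the whole array between groups. That run says nothing about the effect of such features on the calls. Symbols come from GEO's platform annotation (10833 probe sets with 1 symbol, 396 with several, 1259 with none), and all 133 member probe sets matched the RefSeq table by gene ID. A probe set that lists Sec61g beside other symbols is no member. Where a whole group was under background, the fold is a lower limit, set against each array's background (the 95th percentile of 19 bacterial and yeast controls).

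The genes named were, in each class, the 4 largest called differences either way that all 4 array pairs share, the brightest member, genes with a called probe set and another of opposite sign, and Stxbp3, Sypl and Sec23ip in any case. Members, classes and lists were chosen with earlier results of these data known. Experiment numbers pair the RNA samples, since the design text has tips and lung handled in parallel within an experiment. The correlation of same-numbered deviations was 0.0452.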

Additional observations from a re-analysis of the deposited data

Results flagged for a closer look

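Of 80 groups of 4 arrays looked at, 4 had an array far from the other three by Dixon's ratio, where chance gives about 1 in 20. The Rab14 probe set called higher (104442_at) read 716.5 on array 2 of lung experiment 1, the highest of the lung arrays. Another Rab14 probe set (95686_at) read 76.7 on array 2 of tip experiment 1, the lowest of the tip arrays. Rab18 read 10968.6 on array 1 of tip experiment 2, the highest of the tip arrays and still under every lung array. The dimmest Sec62 probe set (99501_at) read 263.6 on array 1 of tip experiment 1, the lowest of the tip arrays. Outside the comparison, the 9 hybridisation controls were 4.94-fold brighter on tip arrays than on lung arrays. Their part in the differences of the members was not tested.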

How the results depend on the processing

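Counts were taken under 19 refits and 2 other choices of names or probe sets. These moved the 10 members called higher most: median centring (5), each array's own background as a floor (25), the highest background as a floor (2), the experiment as a replicate block (16), and each RNA sample left out in turn (1 to 20). The 23 called lower became 14 with the highest background as a floor and 10 to 26 over the left-out samples. The cause was not tested, except that leaving out an RNA leaves fewer samples. All 33 calls held in the paired fit with the block, which added 7. A floor at the second highest background, chosen after seeing the data, gave 8 and 20. No called difference changed sign under any setting tried. Of the comparisons of single members with an alternative that were tallied, 661 kept their call or value, 114 lost the call, 7 gained one and 40 moved without a call. Not every tested member was in this tally. Each array's own background as a floor alone brought 17 new calls among all tested members. Tip backgrounds of up to 1244 limit what can be measured: with that floor 16 of the 33 calls were left.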
